A study of Nicotiana tabacum with 8 samples.

Results

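The genes described here are 7 tomato genes for leaf enzymes of wound defense, out of 34725 tomato coding sequences on which the tobacco reads were counted. They were chosen by a list of Solyc numbers, with earlier results of these data known, and all 7 were listed in each of the 8 libraries. They are 4 polyphenol oxidase (PPO) genes, 3 of them on tomato chromosome 8 (Solyc08g074620, Solyc08g074630 and Solyc08g074680) and 1 on chromosome 2 (Solyc02g078650), with leucine aminopeptidase A on chromosome 12 (Solyc12g010020), arginase 2 on chromosome 1 (Solyc01g091170) and threonine deaminase 2 on chromosome 9 (Solyc09g008670). The enzyme names are those under which the numbers were chosen, because the deposited tables give numbers and coding lengths without descriptions. A Solyc number names the tomato gene, so each value is the sum of tobacco reads that mapped to that gene and not the level of 1 identified tobacco gene.

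These enzymes act on damaged leaf tissue and on the gut contents of insects that eat it. Polyphenol oxidases are copper enzymes of the plastid that oxidize phenolics to reactive quinones once cells are broken, and the quinones bind to protein and brown the tissue. In tomato, leucine aminopeptidase A removes residues from the N-terminal end of peptides, arginase converts arginine to ornithine and urea, and threonine deaminase converts threonine to ammonia and the precursor of isoleucine. The wound-induced forms of arginase and threonine deaminase of tomato remain active in the insect gut, where they take away essential amino acids. In tomato leaves all of these activities are known to rise after wounding through the hormone jasmonate.

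RNA of shoot tips (the apical meristem with the terminal 3 to 4 leaves) was sequenced from Nicotiana tabacum cultivar Samsun after 10 days, with 4 libraries from seedlings grown with the volatiles of the fungus Cladosporium sphaerospermum strain TC09 (TC09-exposed, libraries 13 to 16) and 4 from unexposed seedlings (control, libraries 9 to 12). Germinated seedlings of both groups were moved to vessels of sucrose-containing MS medium. The labels describe a library as the pooled 3 seedlings of 1 of 4 vessels and the paper describes a replicate as a plant, so if plants shared a vessel the libraries are not separate exposures, and the p-values measure only the spread between these libraries. The treatment text attached to every library describes unexposed plants, and the groups follow the exposure tag. The TC09-exposed libraries held 8129933 to 9674090 total gene reads and the control libraries 7853857 to 9365844.

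No enzyme of the set was called changed after TC09 exposure. Of the 7 genes, 5 had enough reads to be tested, and none of the 5 was called at an adjusted p of 0.05 or less with edgeR's quasi-likelihood test, on total or on unique gene reads. Among all genes tested, 21.5% of 19325 were called on total gene reads (9.56% higher and 12% lower) and 21.8% of 19073 on unique gene reads (9.65% higher and 12.1% lower). The balance of directions depends on the scaling, since 44.4% of the calls on total gene reads were higher with TMM and 64.8% with total library size only. In the members an unadjusted p under 0.05 was reached by 1 gene, arginase 2, against 35.3% of all genes tested on total and 35.6% on unique gene reads, and DESeq2 and limma-voom also called 0 of the 5 on total gene reads. The median log2 fold change of the 5 was 0.14, against 0.01 over all genes tested. The other 2 members were leucine aminopeptidase A, which had no read in any library, and the PPO gene Solyc02g078650, whose 32 reads all came from control libraries. Fewer cells that express a gene and less of its RNA per cell cannot be told apart in these tissue samples.

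**Figure D1:**
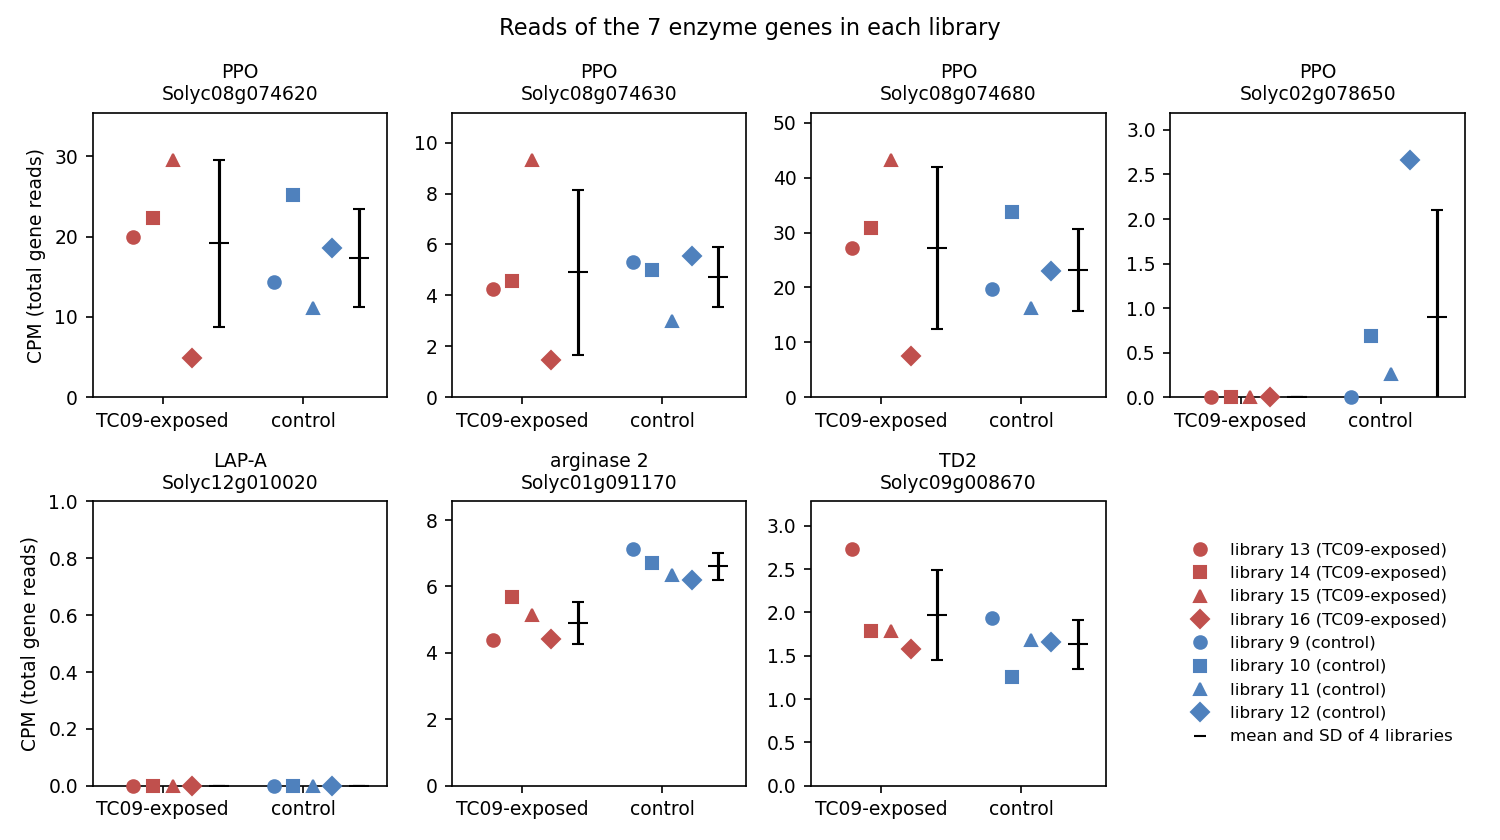
CPM (total gene reads per 1000000 of the library, TMM-scaled) of each of the 7 genes, with 1 point per library, TC09-exposed libraries on the left and control libraries on the right, and the black bar giving the mean and SD of 4 libraries (cut at 0 in Solyc02g078650). The groups overlap in the 3 chromosome 8 PPO genes and in threonine deaminase 2 (TD2), all TC09-exposed points lie below all control points in arginase 2, and leucine aminopeptidase A (LAP-A) is at 0 throughout.

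The PPO gene Solyc08g074680 collected the most reads of the set. Its level was 27.1, 30.8, 43.2 and 7.57 CPM in TC09-exposed libraries 13 to 16, against 19.7, 33.7, 16.3 and 22.9 CPM in control libraries 9 to 12. Library 15 was the highest and library 16 the lowest of all 8, both of them TC09-exposed, with all 4 controls in between. The means were 27.2 ± 14.8 CPM in TC09-exposed and 23.2 ± 7.52 CPM in control libraries (SD, n = 4 each). The log2 fold change was 0.23 (standard error 0.408, 95% interval -0.67 to 1.14, adjusted p = 0.723, edgeR), and the interval of the fold change ran from 0.627 to 2.20.

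Solyc08g074620 followed the same order of libraries. It had 19.9, 22.3, 29.5 and 4.86 CPM in TC09-exposed libraries 13 to 16, against 14.4, 25.2, 11.2 and 18.6 CPM in control libraries 9 to 12. Again library 15 was above and library 16 below every control. Its log2 fold change was 0.14 (standard error 0.425, 95% interval -0.80 to 1.09, adjusted p = 0.838, edgeR).

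Solyc08g074630, which has the same coding length as Solyc08g074620 (1764 bases), was the least abundant of the 3. It had 4.27, 4.58, 9.30 and 1.47 CPM in TC09-exposed libraries 13 to 16, against 5.32, 5.01, 2.98 and 5.54 CPM in control libraries 9 to 12. Libraries 13 and 14 lay inside the control range, library 15 above it and library 16 below it. The log2 fold change was 0.07 (standard error 0.427, 95% interval -0.88 to 1.01, adjusted p = 0.931, edgeR). None of the 3 directions was stable: without TC09-exposed library 15 the log2 fold changes of Solyc08g074620, Solyc08g074630 and Solyc08g074680 were -0.14, -0.46 and -0.09, with adjusted p of 0.856, 0.431 and 0.910 (edgeR).

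Because the PPO genes resemble each other, their reads were also examined as unique and shared reads. Of the reads of Solyc08g074620, 78.6% were unique over the TC09-exposed and 75.6% over the control libraries, and of those of Solyc08g074630, 78.1% and 79.5%. Solyc08g074680 (listed coding length 5421 bases) hardly shared reads at all, with 98.4% unique in TC09-exposed and 98.0% in control libraries. On unique gene reads alone the log2 fold changes were 0.20 for Solyc08g074620, 0.04 for Solyc08g074630 and 0.24 for Solyc08g074680, with adjusted p of 0.762, 0.959 and 0.711 (edgeR). The libraries 15 and 16 were the highest and the lowest in all 3 genes on unique reads too.

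Summed over the 4 PPO genes, the level was 51.3, 57.7, 82.0 and 13.9 CPM in TC09-exposed libraries 13 to 16, against 39.4, 64.6, 30.7 and 49.7 CPM in control libraries 9 to 12. The highest TC09-exposed library was 5.89 times the lowest, whereas the highest control library was 2.10 times the lowest. Library 16 alone set the low end of the TC09-exposed group at 13.9 CPM, and libraries 13 to 15 ran from 51.3 to 82.0 CPM. The mean was 51.2 ± 28.2 CPM in TC09-exposed and 46.1 ± 14.6 CPM in control libraries (SD, n = 4 each), a difference smaller than either SD.

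The spread within the TC09-exposed group was wide for genes of this level. The coefficient of variation over the 4 TC09-exposed libraries was 54.1% for Solyc08g074620, 66.3% for Solyc08g074630 and 54.3% for Solyc08g074680, where the median over all genes tested was 15.5%. Among genes within 2-fold of their mean level, these coefficients stood at percentiles 98.5, 98.3 and 98.7. In the control group they were 34.9%, 24.9% and 32.5% (median of all genes 13.1%), at percentiles 96.0, 69.8 and 96.4 among genes of similar level. Over all genes tested, 2.43% differed at least 2-fold between libraries 15 and 16 (on CPM with 0.5 added), and 0.238% at least 4-fold. At 2-fold, the 6 pairs of TC09-exposed libraries ran from 2.01% to 6.97% and the 6 pairs of control libraries from 1.72% to 3.83%. Library 15 held 9674090 and library 16 held 9118026 total gene reads, and the part of depth or of any library step in the PPO spread was not tested.

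Of the 3 chromosome 8 PPO genes, Solyc08g074620 and Solyc08g074680 moved in nearly fixed proportion. The ratio of the reads of Solyc08g074620 to those of Solyc08g074680 stayed between 0.642 and 0.812 over the 8 libraries while their levels differed 6.07-fold and 5.70-fold between libraries 15 and 16. The ratio to Solyc08g074630 was looser, from 2.70 to 5.02. By Pearson's r of log2 CPM over the 8 libraries, the gene most alike Solyc08g074620 among all genes tested was Solyc08g074680 (r = 0.994), and the reverse held as well. Next for both came Solyc08g074650 (r = 0.961 and 0.960), which carries a number between them and is not named in the files. The gene most alike Solyc08g074630 was Solyc02g090990 (r = 0.959), which is not a member. Across all genes tested, r passed 0.9 for 14 genes with Solyc08g074620 and 15 with Solyc08g074680, and these values describe 8 libraries of shared depth scaling only.

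The run of Solyc numbers that holds the 3 PPO genes has 4 further genes between them, and those did not all share the pattern. Solyc08g074650 had 6.12, 4.58, 5.74 and 0.678 CPM in TC09-exposed libraries 13 to 16, against 2.90, 5.35, 2.46 and 3.10 CPM in control libraries 9 to 12. Solyc08g074640 had 4.16, 5.36, 6.73 and 1.81 CPM in the TC09-exposed and 3.63, 3.87, 3.50 and 4.43 CPM in the control libraries. Library 16 was the lowest in both, by 8.46-fold and 3.72-fold relative to library 15, and neither gene was called (adjusted p = 0.686 and 0.646, edgeR). These 2 ratios rest on few reads in library 16, with 6 reads of Solyc08g074650 and 16 of Solyc08g074640, against 58 and 68 in library 15. The remaining 2 genes of the run, Solyc08g074660 and Solyc08g074670, differed by 0.876-fold and 1.04-fold between libraries 15 and 16. The ratio of Solyc08g074660 rests on few reads, 31 over the TC09-exposed and 44 over the control libraries, against 193 and 126 for Solyc08g074670.

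**Figure D2:**
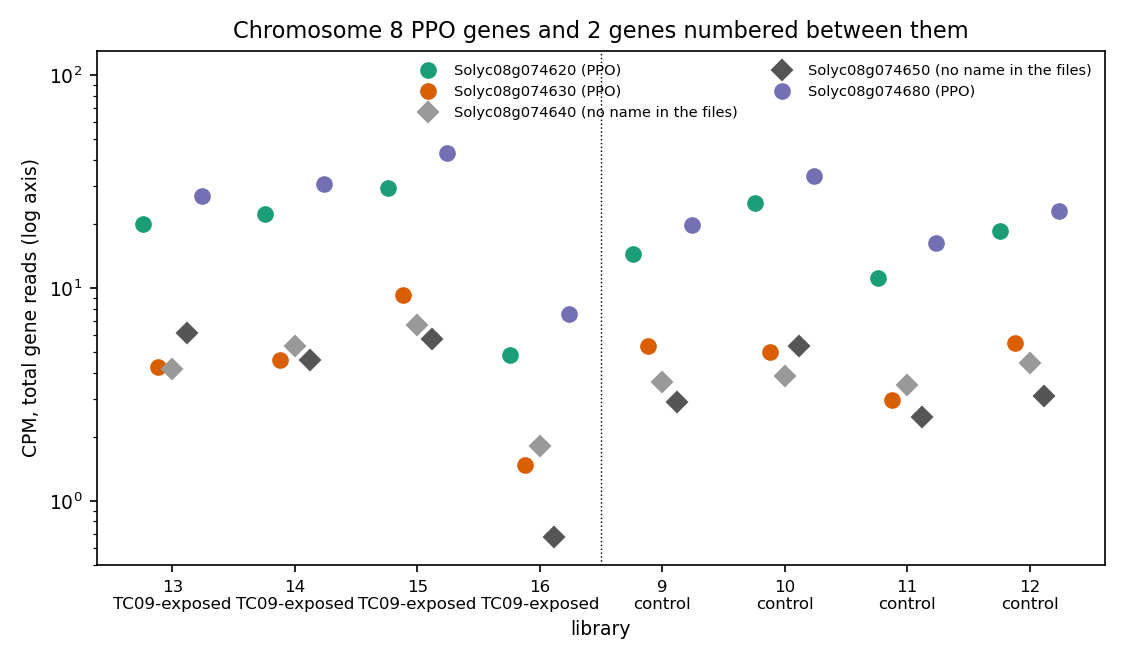
CPM on a log axis of the 3 chromosome 8 PPO genes (circles) and of 2 genes numbered between them that carry no name in the files (diamonds), with TC09-exposed libraries 13 to 16 left of the dotted line and control libraries 9 to 12 right of it and points of a library set apart sideways for legibility. All 5 genes are lowest in TC09-exposed library 16, and the 2 most abundant keep a similar distance on the log axis in every library.

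The PPO gene on chromosome 2, Solyc02g078650, behaved differently. It had 0 reads in each of the 4 TC09-exposed libraries, against 0, 6, 2 and 24 reads in control libraries 9 to 12, all of them unique. The control libraries differed widely among themselves, since library 12 alone held 75% of the reads and library 9 had none, as in the exposed group. With so few reads it did not pass the filter on low counts. Its mean was 0 CPM in TC09-exposed and 0.90 ± 1.21 CPM in control libraries (SD, n = 4 each). An exact two-sided permutation test on CPM gave p = 0.143. In general 4 against 4 libraries allow 0.0286, but with reads in control libraries 10 to 12 alone the test could give nothing below 0.143. It therefore cannot decide whether the groups differ. The edgeR fit without a filter gave an adjusted p of 0.0548. Set against the limit that a count of 0 allows (3 counts over the group), the pooled level was at least 11.7-fold lower in the TC09-exposed libraries, and at least 3.99-fold lower without control library 12. This covers counting error only.

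Leucine aminopeptidase A (Solyc12g010020, coding length 1653 bases) had 0 reads in all 4 TC09-exposed and all 4 control libraries. A count of 0 allows up to 0.0810 CPM over the TC09-exposed and 0.0888 CPM over the control group. No comparison was possible from these counts. Reads were counted on the tomato sequence, so a count of 0 gives no level for the tobacco gene. Of the 10 genes with the nearest numbers, all had at least 1 read and 7 passed the filter. The most abundant of them was Solyc12g010040, a gene of similar coding length (1734 bases) that is not named in the files and was singled out after its values were seen. It had 233.0 ± 40.0 CPM in TC09-exposed and 274.8 ± 13.9 CPM in control libraries (SD, n = 4 each), with an adjusted p of 0.189 (edgeR).

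Arginase 2 (Solyc01g091170) had the lowest adjusted p of the 5 members that passed the filter, and its values were lower after exposure. It had 4.37, 5.69, 5.15 and 4.41 CPM in TC09-exposed libraries 13 to 16, against 7.13, 6.72, 6.35 and 6.20 CPM in control libraries 9 to 12. Every TC09-exposed library lay below every control library. The groups did not overlap in 25% of all genes tested (13.5% lower in the TC09-exposed libraries, and 25.1% in either direction on unique reads), and among the 5 tested members this was the only one. The means were 4.91 ± 0.634 CPM in TC09-exposed and 6.60 ± 0.415 CPM in control libraries (SD, n = 4 each), which is 0.744-fold. The log2 fold change was -0.43 (standard error 0.148, 95% interval -0.75 to -0.10), with an unadjusted p of 0.0159 and an adjusted p of 0.0648 (edgeR), over the threshold. The test passed without TC09-exposed library 14 (adjusted p = 0.0377, edgeR) and in none of the other alternatives, over which the adjusted p ran from 0.0598 to 0.172.

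The scale of the values matters for this gene. In TPM as deposited (reads per coding length, scaled to a common total) it had 4.15, 6.04, 4.97 and 3.90 in TC09-exposed libraries 13 to 16, against 6.22, 5.73, 5.84 and 5.80 in control libraries 9 to 12. On that scale library 14, which has the largest TMM factor of the 8 (1.10), lay inside the control range and the groups overlapped. On unique gene reads the log2 fold change was -0.35 and the adjusted p 0.116 (edgeR).

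The gene with the number next to arginase 2, Solyc01g091160, has the same coding length of 1017 bases. The files give it no name, and it was singled out after its values were seen. It had 12.4, 17.5, 16.1 and 15.2 CPM in TC09-exposed libraries 13 to 16, against 20.7, 19.8, 25.5 and 23.3 CPM in control libraries 9 to 12. In CPM no TC09-exposed library reached a control library, but in TPM library 14 (18.6) lay above control libraries 9 (18.0) and 10 (16.9). It fell to 15.3 ± 2.19 CPM in TC09-exposed libraries, against 22.3 ± 2.60 CPM in control libraries (SD, n = 4 each), with -0.54 on the log2 scale (SE 0.133) and an adjusted p of 0.0169 by edgeR. The call ended without control library 11 (adjusted p = 0.0606) and with scaling by total library size only (adjusted p = 0.0574). The unique share was 90.6% in this gene over the 8 libraries, and in arginase 2 it was 93.4% over the TC09-exposed and 88.8% over the control libraries, so a few reads of each also fit other genes.

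**Figure D3:**
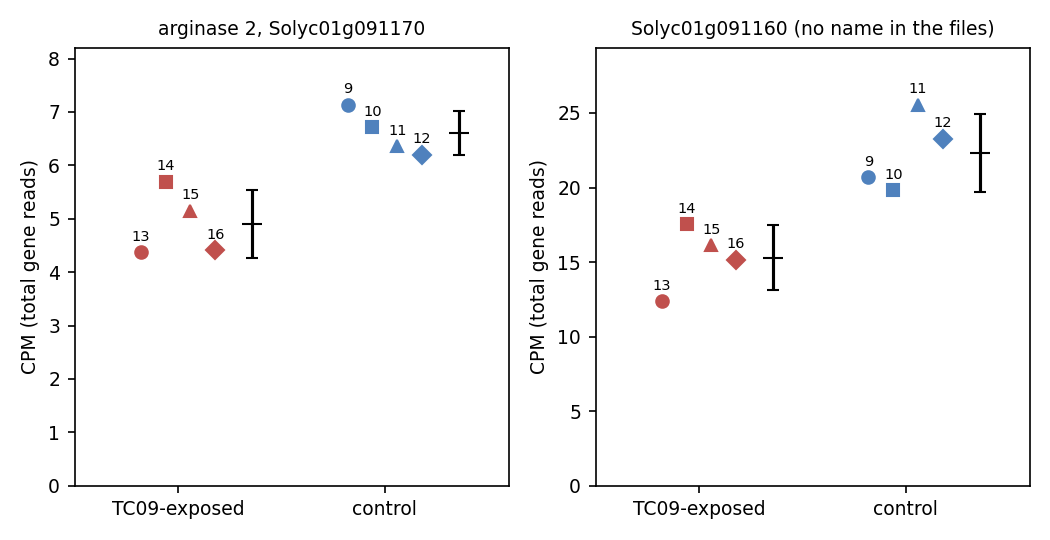
CPM of arginase 2 (left panel) and of the gene with the next number (right panel) in each library, marked by library number, with the black bar giving the mean and SD of 4 libraries. In both panels the TC09-exposed libraries lie below the control libraries in CPM, at 4.37 to 5.69 against 6.20 to 7.13 CPM and at 12.4 to 17.5 against 19.8 to 25.5 CPM.

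Threonine deaminase 2 (Solyc09g008670) was measured at the lowest level of the tested members and without any shared read. It had 25, 16, 18 and 14 reads in TC09-exposed libraries 13 to 16, against 16, 11, 13 and 15 reads in control libraries 9 to 12. This is 2.73, 1.79, 1.78 and 1.58 CPM in the TC09-exposed and 1.93, 1.25, 1.69 and 1.66 CPM in the control libraries. Library 13 stood above the rest, and the other 3 TC09-exposed libraries fell inside the control range. The log2 fold change was 0.27 (standard error 0.259, 95% interval -0.30 to 0.85, adjusted p = 0.486, edgeR), and the interval of the fold change ran from 0.811 to 1.80.

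**Figure D4:**
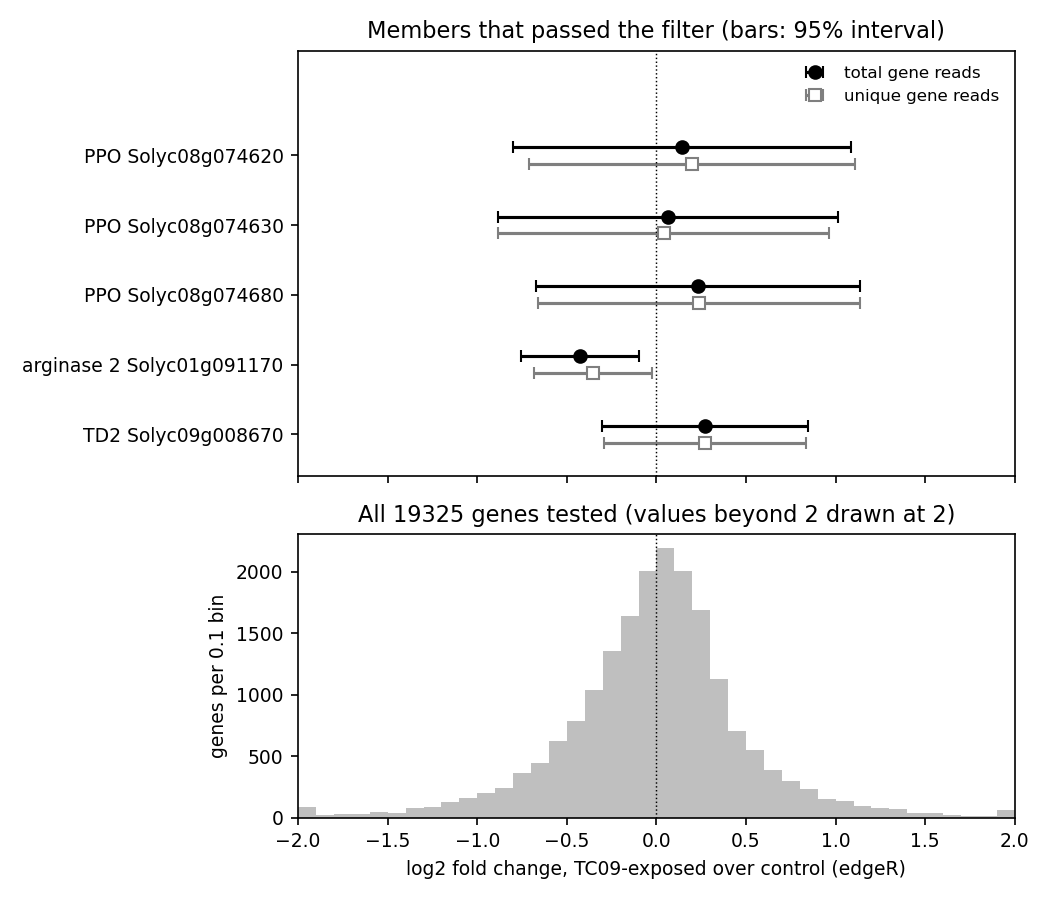
Upper panel, log2 fold change of TC09-exposed over control for the 5 members that passed the filter, on total gene reads (filled) and unique gene reads (open), with 95% intervals. Lower panel, the number of genes per bin of 0.1 in the same log2 fold change over all 19325 genes tested, with values beyond 2 in either direction placed in the end bins. The intervals of the 3 PPO genes and of TD2 include 0, and that of arginase 2 runs from -0.75 to -0.10 on total gene reads before adjustment for the number of genes.

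Levels per length can be set between the genes on the deposited TPM scale, which takes out coding length but not the loss of reads between the species. The listed coding length of Solyc08g074680 is 5421 bases, against 1764 bases for Solyc08g074620 and Solyc08g074630. Whether that length is right was not checked, and the place of Solyc08g074680 in the order rests on it. In the TC09-exposed libraries the order of mean TPM was Solyc08g074620 (10.9 ± 6.03), Solyc08g074680 (5.01 ± 2.79), arginase 2 (4.76 ± 0.965), Solyc08g074630 (2.76 ± 1.83) and threonine deaminase 2 (1.08 ± 0.287), with Solyc02g078650 and leucine aminopeptidase A at 0 (SD, n = 4 each). The library ranges of neighbors in this order overlapped, except between threonine deaminase 2 and the 2 genes at 0. In the control libraries arginase 2 (5.90 ± 0.221) lay above Solyc08g074680 (3.87 ± 1.14), and their ranges did not overlap there (SD, n = 4 each). The remaining control means were 8.89 ± 2.89 for Solyc08g074620, 2.43 ± 0.603 for Solyc08g074630, 0.833 ± 0.155 for threonine deaminase 2 and 0.445 ± 0.610 for Solyc02g078650 (SD, n = 4 each), with leucine aminopeptidase A at 0. The PPO gene Solyc08g074620, the highest of the set per listed length, was at percentile 42.2 of the tested genes in the TC09-exposed and 38.6 in the control libraries.

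Other genes set beside the members came from 2 lists. The first holds the 54 genes whose Solyc numbers lie within 50 of a member, which the files do not name. Of these 41 passed the filter, 4 were higher and 4 lower in the TC09-exposed libraries and 33 did not pass the test (edgeR), with a median log2 fold change of 0.03. Called genes made up 21.5% of all genes tested, so 8 called of 41 is near that share. None of the 10 tested neighbors of the chromosome 8 PPO genes was called.

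The second list holds the 14 genes that the paper places under insect resistance or jasmonate signaling, a list the study drew from these same libraries, so its direction is not independent evidence. All 11 that passed the filter were higher in the TC09-exposed libraries, by 1.87-fold to 3.92-fold, with a median log2 fold change of 1.50 against 0.14 in the 5 tested members. Among all genes tested 9.56% were called higher. The gene annotated there as JA-1, a factor of jasmonate signaling (Solyc05g007180), had 43.1, 39.4, 35.8 and 41.5 CPM in TC09-exposed libraries 13 to 16, against 18.1, 24.5, 14.3 and 18.1 CPM in control libraries 9 to 12. Its 4 TC09-exposed values were close together, and library 16, the lowest for the PPO genes, was not low in it. The gene annotated there as a seed storage type protease inhibitor (Solyc01g066910) had 9.95, 4.80, 4.85 and 4.41 CPM in the TC09-exposed and 1.69, 2.05, 1.94 and 2.77 CPM in the control libraries. The Kunitz trypsin inhibitor (Solyc06g072230) had 6.12, 11.9, 6.63 and 6.67 CPM in the TC09-exposed and 4.96, 3.19, 3.63 and 3.43 CPM in the control libraries. In these 3 genes every TC09-exposed library lay above every control library in CPM, but their list was drawn from these same libraries. Such full separation was found in 25% of the 19325 genes tested, 11.5% with the TC09-exposed libraries higher and 13.5% with them lower. Among the 5 tested members it held for arginase 2 alone, with the TC09-exposed libraries lower. Whether the difference between the lists is larger than chance was not tested.

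**Figure D5:**
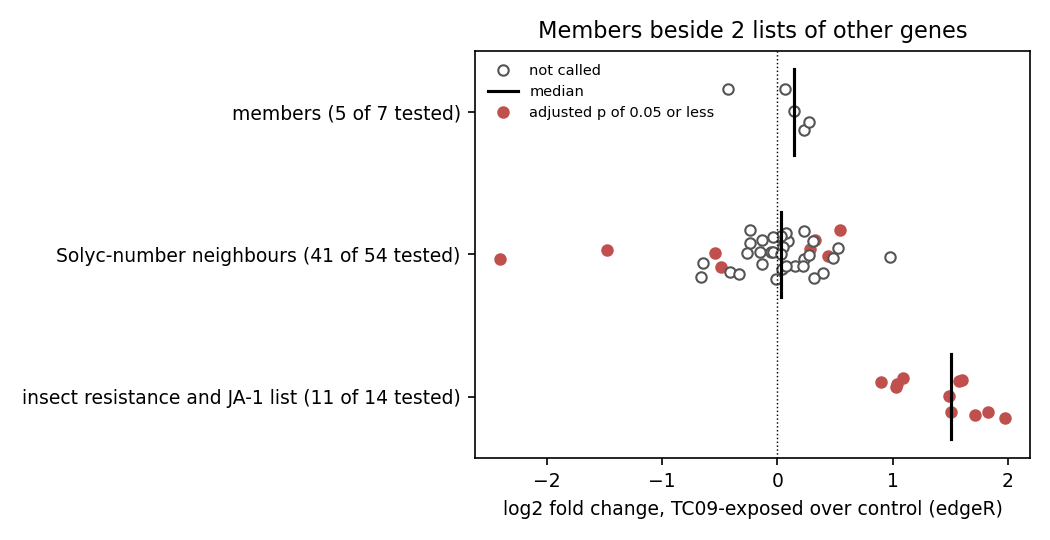
Log2 fold change of TC09-exposed over control for the tested genes of 3 lists, with 1 point per gene (filled where the adjusted p was 0.05 or less) and a vertical line at the median; vertical scatter within a list carries no meaning. The 5 members and the 41 neighbors center near 0 (medians 0.14 and 0.03), and the 11 genes of the insect resistance and JA-1 list lie between 0.90 and 1.97.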

How the data were processed

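Per the paper's methods, the authors trimmed and quality-filtered the reads and aligned them against tomato genes in CLC Genomics Workbench with default settings, and they deposited counts (total and unique gene reads) and TPM for each library, with the coding length of each gene. The paper names the tomato reference genome and its annotation site without a release. Deposited TPM was recomputed from total reads and coding length and matched. Related tobacco copies may add to 1 tomato gene.

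Total gene reads were fitted in edgeR 4.0.16 (R 4.3.3) after filterByExpr (minimum count 10, minimum total 15) and TMM scaling, by a quasi-likelihood model with exposure as its only term. P-values were Benjamini-Hochberg adjusted over the 19325 genes tested, with a threshold of 0.05. Unique gene reads were fitted likewise. CPM divides reads by total gene reads times the TMM factor. Standard errors were taken from the F statistic and the log2 fold change. In the 8 libraries 1 read was worth 0.0990 to 0.130 CPM. Alternatives were RLE, no scaling factors, no filter, a mean of 50 reads, DESeq2 1.42.0, limma-voom (limma 3.58.1), unique reads, a threshold of 0.01 and leaving out each library.

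Named were the 7 members, genes numbered within 50 of them, the paper's 14 insect resistance and jasmonate genes, and the gene with the highest r (log2 CPM, prior count 2). Other genes named were chosen after their values were seen. The members and lists were chosen with earlier results of these data known. The deposited tables carry no gene descriptions, and tissue markers were not checked.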

Additional observations from a re-analysis of the deposited data

How the results depend on the processing

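No member was called on total gene reads under any alternative except without TC09-exposed library 14, which called 1 (arginase 2), so leaving out each library in turn gave 0 to 1 members, and none was called on unique gene reads. The refits on unique reads were chosen after seeing the data. Over the whole table the calls were 1847 higher and 2317 lower; scaling by total library size only gave 3057 higher and 1663 lower, a threshold of 0.01 gave 701 higher and 1031 lower, and leaving out each library gave 1148 to 2575 higher and 1468 to 2863 lower. In limma-voom the log2 fold change was -0.051 for Solyc08g074620 and -0.16 for Solyc08g074630 (-0.18 on unique reads). Leaving out each library, the values ran from -0.14 to 0.48 for Solyc08g074620 (-0.092 to 0.52 on unique reads), -0.46 to 0.38 for Solyc08g074630 (-0.49 to 0.34) and -0.086 to 0.56 for Solyc08g074680 (-0.079 to 0.56). The signs turned without TC09-exposed library 15 in all 3 and without control library 11 in Solyc08g074630 (-0.08 on both kinds of read), and the cause was not tested. The log2 ratio of the summed PPO level ran from -0.17 to 0.47. Arginase 2 stayed below 0 and threonine deaminase 2 above 0 in every alternative that tested them. For Solyc02g078650 the difference in mean CPM (TC09-exposed minus control) was -0.90, and -1.20 to -0.31 leaving out each library, with an exact permutation p of 0.0286 without control library 9, 0.257 without any one TC09-exposed library and 0.143 otherwise; these refits were chosen after seeing the data. With reads of Solyc02g078650 in so few libraries, these permutation p-values depend on which library is left out and cannot decide whether the groups differ. The order of the members by level was the same on unique reads. No paired analysis was possible because the library numbers in the labels (9 to 16) are not shared between the groups and nothing in the labels ties a library of one group to a library of the other. Few reads limit Solyc02g078650 and threonine deaminase 2, the latter with 73 reads over the TC09-exposed and 55 over the control libraries. Leucine aminopeptidase A had no read, and the part of depth or of counting on the tomato sequence in this was not tested.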
